A study of Rattus norvegicus with 21 samples.

Results

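The transcriptome of renal cortex was compared between DMT-treated rats of a diabetic strain and healthy Sprague Dawley rats, to describe what still set the treated cortex apart from healthy cortex. The comparison comprised 12 of the 21 libraries of the ZDSD experiment, chosen by their condition labels: 6 of DMT rats, a group the labels name medical bypass, and 6 of Sprague Dawley (SD) rats. SD rats were the healthy controls, of a different strain. DMT rats were Zucker Diabetic Sprague Dawley (ZDSD) animals that had a sham laparotomy, followed by dietary restriction together with fenofibrate, metformin, ramipril, rosuvastatin and liraglutide. All rats were 37 weeks old. They were male and were provided with one brand of chow, by the study's methods, which describe a laparotomy for SHAM and DMT rats only. Sham-operated ZDSD rats without the intervention (SHAM) served to sort the genes, and 7 of the 9 SHAM libraries were used for this. These 7 were part of the same fit, so they also entered its filter, normalization and estimate of spread.

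ZDSD rats become obese and diabetic through many genes while leptin signalling stays intact, and they were derived in part from the Sprague Dawley stock. Their healthy comparator is therefore related but not isogenic. A difference between ZDSD and SD cortex may be of diabetes, of inherited variation or of the surgery. The study describes the laparotomy, with insulin beforehand, an antibiotic and an analgesic, for SHAM and DMT rats only. Each drug acts through a different target: fenofibrate is an agonist of PPARα, a nuclear receptor that drives genes of fatty acid oxidation in proximal tubule and liver, rosuvastatin blocks HMG-CoA reductase, ramipril inhibits angiotensin-converting enzyme, liraglutide is an agonist of the GLP-1 receptor and metformin lowers hepatic glucose output. All 5 drugs and the dietary restriction were given together, and no group received 1 of them alone, so their contributions cannot be told apart. Strain, the diabetes it develops and the surgery with its medication cannot be told apart either. All rats of the diabetic strain had surgery and are compared with rats of another strain, for which none is described. Glycaemia at sampling was not analysed here. By the study's group means, plasma glucose after the intervention was high in SHAM rats and near the healthy level in DMT rats.

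Total counts ranged from 22308943 to 26812590 in DMT rats, from 20896370 to 27597901 in SD rats and from 14502127 to 23995113 in the 7 SHAM rats. The remaining SHAM libraries, of rats 343 and 348, held 121511 and 101534 counts and were left out for this low depth, and they were added back in alternative fits. The 2 profiles differed by no more than sampling noise (chi-square of their counts 1.03 per degree of freedom, p=0.0964), a comparison with little power at such depth. Libraries of SD and SHAM rats are labelled as re-analyses of an earlier deposit while those of DMT rats are not, and whether all libraries were prepared together is not given in the sources used here. A difference tied to this split cannot be told apart from the treatment in DMT vs SD or DMT vs SHAM. Expression is given as counts per 1000000 after TMM normalization (CPM), and 3 counts corresponded to 0.112 to 0.184 CPM. Genes carried Ensembl identifiers without symbols, so the labelled tissue was not checked against marker genes. Only the 2 largest increases and 2 largest decreases without overlap of DMT and SD rats are identified. In bulk tissue, fewer cells of a type and less RNA per cell cannot be told apart.

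Treated ZDSD cortex differed from healthy cortex in 2663 of 14664 genes tested (18.2%), of which 1174 were higher in DMT rats (8.01%) and 1489 lower (10.2%; edgeR quasi-likelihood test, Benjamini-Hochberg adjusted p under 0.05 and fold change of at least 1.3). The levels of all 6 DMT rats lay outside those of all 6 SD rats in 2477 genes (16.9%), above them in 1161 genes (7.92%) and below them in 1316 genes (8.97%). The median log2 fold change over all genes tested was 0.00783. Of the 12001 genes not called, 6779 (46.2% of genes tested) had a 95% interval of the fold change that stayed within 1.3-fold in both directions. The other 5222 had intervals reaching beyond 1.3-fold, so a difference of that size may have been missed in them. A further limit of the call is that 2019 of the uncalled genes passed the adjusted p but changed by less than 1.3-fold.

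The position of the SHAM rats was then used to sort the 2663 genes. A gene was classed as treatment-associated when DMT also differed from SHAM in the same direction and SHAM vs SD was not called, and as retained when SHAM vs SD was called in the same direction and DMT vs SHAM was not. A step that was not called may still have passed the adjusted p with a change under 1.3-fold. For reference, the same test called 1684 genes (11.5%) between DMT and SHAM rats, 604 higher (4.12%) and 1080 lower (7.36%) in DMT. Between SHAM and SD rats it called 2681 genes (18.3%), 1515 higher (10.3%) and 1166 lower (7.95%) in SHAM. Retained genes were the largest class with 1212 genes (45.5% of those called), of which 552 were higher and 660 lower in DMT than in SD rats. Treatment-associated genes numbered 572 (21.5%), of which 242 were higher and 330 lower. In 106 genes both steps were called in the same direction, in 56 genes the SHAM difference was partly reversed in DMT rats, and in 60 genes the SHAM difference was in the opposite direction, so that DMT rats had crossed the healthy level (overshoot). The remaining 657 genes (24.7%) were unresolved, with neither step called. The 3 comparisons share libraries and a step that was not called is not shown to be absent, so the class sizes are a description without a test.

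The location of the SHAM rats between SD and DMT rats was expressed as the log2 fold change of SHAM vs SD divided by that of DMT vs SD, with 0 at the healthy and 1 at the treated level. Its median was -0.00472 in treatment-associated genes (quartiles -0.203 and 0.179) and 0.984 in retained genes (quartiles 0.817 and 1.18). It was 0.529 in unresolved genes (quartiles 0.399 and 0.673), which thus lay midway. The class rule itself sets these positions, so they describe the classes and test nothing. The differences of unresolved genes were also smaller, with a median absolute log2 fold change of 0.534 compared with 0.774 in treatment-associated and 0.743 in retained genes.

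**Figure D1:**
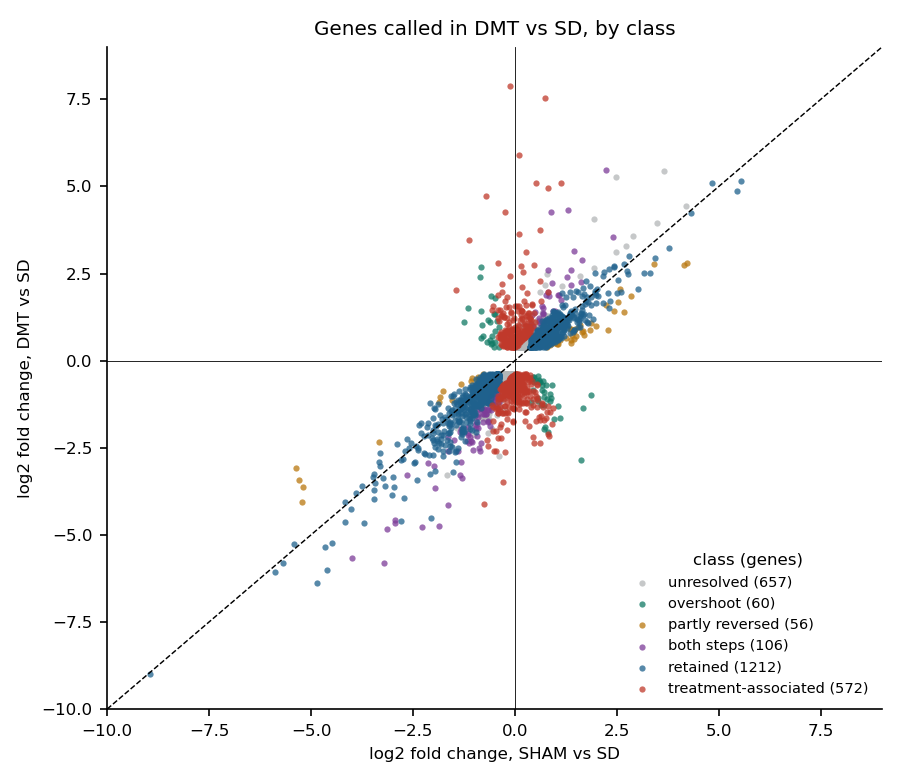
The log2 fold change of DMT vs SD (vertical axis) is plotted against that of SHAM vs SD (horizontal axis) for the 2663 genes called, 1 point per gene, coloured by class. Retained genes follow the dashed line of equal change and treatment-associated genes stand above and below 0 on the horizontal axis, as the class rule requires, while the 2 highest points are treatment-associated and the 2 lowest retained.

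Called genes were named only with at least 1 CPM in DMT or SD rats and no overlap between these groups. Both of the largest increases among such genes were treatment-associated and near the counting floor in both untreated groups. ENSRNOG00000006280 (chromosome 5, 129878797 to 129900625 of rn5, minus strand, 12 exon blocks totalling 3333 bp) was measured at 39.3, 75.7, 65.4, 36.8, 74.2 and 66.7 CPM in the 6 DMT rats. In SD rats it ranged from 0.0861 to 0.401 CPM (median 0.253, n=6), and in SHAM rats from 0.0442 to 0.489 CPM (median 0.184, n=7). The naming rule required that DMT and SD rats not overlap. No DMT rat came near the SHAM rats either, while SHAM and SD rats overlapped over most of their range. The means were 59.7 ± 17.2 CPM in DMT and 0.248 ± 0.116 CPM in SD rats (SD of 6 rats each), a log2 fold change of 7.87 (SE 0.29, adjusted p=1.26e-12, edgeR). DMT vs SHAM gave 7.99 (adjusted p=3.21e-13) and SHAM vs SD -0.12 (adjusted p=0.879). Over pooled counts, 8940 in DMT and 34 in SD rats, the ratio was 241 (exact 95% interval 172 to 348, counting error only).

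ENSRNOG00000034228 (chromosome 4, 237973381 to 238354786 of rn5, plus strand) showed the same pattern at a lower level. It was measured at 22.4, 13.2, 19.6, 16.7, 21.1 and 12 CPM in DMT rats, compared with 0.0415 to 0.146 CPM in SD rats (median 0.0829) and 0.0442 to 0.343 CPM in SHAM rats (median 0.138). Again every DMT rat lay above every SHAM rat, and above every SD rat as the naming rule required, and the untreated groups overlapped. The log2 fold change of DMT vs SD was 7.54 (SE 0.30, adjusted p=1.56e-12, edgeR), and that of DMT vs SHAM 6.80. SHAM vs SD was 0.74 and did not pass (adjusted p=0.257), and it rested on 21 counts in all SHAM and 12 in all SD rats. This gene overlaps another gene on the same strand, and fragments that fell in both were not counted for either.

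Both of the largest decreases under the same naming rule were retained genes, which were under 1 CPM in every ZDSD rat whether treated or not. ENSRNOG00000020057 (chromosome 1, 82787111 to 82789825 of rn5, minus strand) was measured at 3.85, 0.83, 1.55, 3.21, 4.63 and 24.1 CPM in SD rats. A single count was found over all 6 DMT libraries, in rat 341, and a single count over all 7 SHAM libraries, in rat 334. SD rats thus overlapped neither DMT rats, which the naming rule required, nor SHAM rats. The SD rats themselves were spread widely and rat 357 stood far above the others. Over pooled counts, 791 in SD rats against 1, the ratio was 863 for SD to DMT (exact 95% interval 154 to 34100) and 814 for SD to SHAM (146 to 32200), and for DMT and SHAM it was undetermined at 1.06 (0.0135 to 83.2). The fitted log2 fold change of -9.00 (SE 1.07, adjusted p=4.26e-06, edgeR) depends on the prior count of the fit, and was -7.83 without SD rat 357 and -10.12 without DMT rat 341.

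ENSRNOG00000048402 (chromosome 6, 147084636 to 147241844 of rn5, minus strand) ranged from 0 to 0.245 CPM in DMT rats (median 0.125) and from 0 to 0.784 CPM in SHAM rats (median 0.368). In SD rats it was measured at 15.2, 2.66, 21.9, 1.44, 21.5 and 0.564 CPM. All SD rats lay above all DMT rats, as the naming rule required. The lowest SD rat lay within the SHAM range, however, and the healthy rats differed greatly among themselves. The log2 fold change of DMT vs SD was -6.37 (SE 0.92, adjusted p=3.89e-05, edgeR), with a pooled ratio of SD to DMT of 85.8 (exact 95% interval 54.1 to 145). SHAM vs SD was -4.86 (adjusted p=0.000131) and DMT vs SHAM -1.51 (adjusted p=0.394). The pooled ratio of SHAM to DMT was 2.94 (exact 95% interval 1.69 to 5.36), which covers counting error but not the spread between rats. This gene, too, overlaps another on the same strand.

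**Figure D2:**
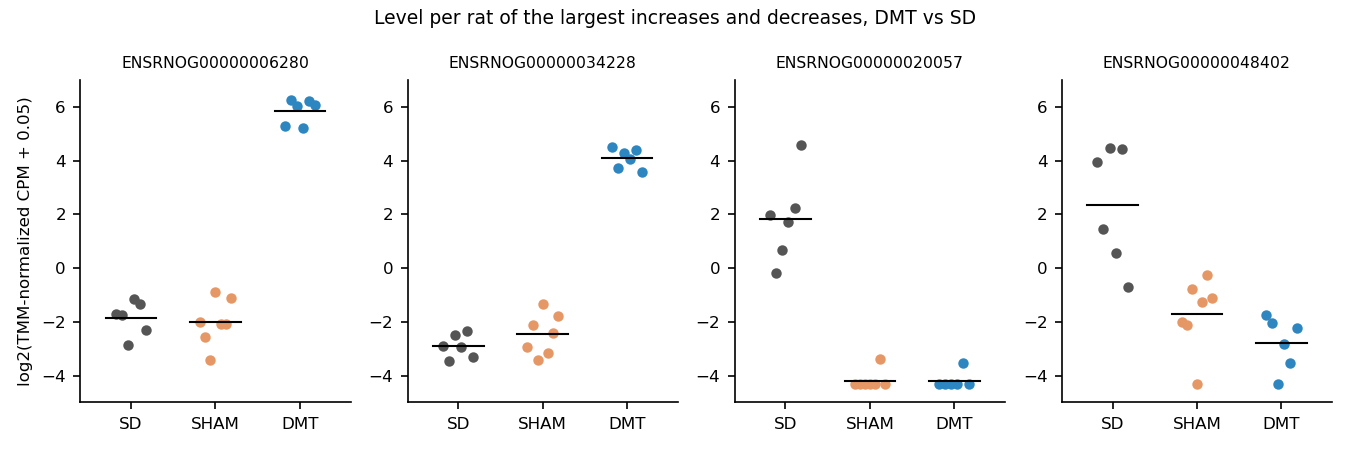
The level of the 4 named genes, chosen by fold change among genes without overlap of DMT and SD rats, is shown as log2(CPM + 0.05). Each rat is 1 point (6 SD, 7 SHAM, 6 DMT), with lines at the mean of the log values. In the first 2 panels the DMT rats stand apart from overlapping SD and SHAM rats, and in the last 2 panels SD rats are high and spread over several log2 units while both ZDSD groups are under 1 CPM.

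The make-up of the difference depended on its size and direction. Among the 842 genes that differed by at least 2-fold, treatment-associated and retained genes had shares much as among all genes called. They numbered 188 (22.3%) and 401 (47.6%). Genes with both steps rose from 3.98% of all genes called to 11.9%, and unresolved genes fell from 24.7% to 12.4%. From 4-fold upwards the directions diverged. Of the 77 genes at least 4-fold higher in DMT rats, 21 were treatment-associated (27.3%) and 25 retained (32.5%), whereas of the 152 genes at least 4-fold lower, 16 were treatment-associated (10.5%) and 91 retained (59.9%). At 8-fold, 12 of 30 higher genes were treatment-associated (40.0%) and 5 retained (16.7%), against 2 (3.85%) and 32 (61.5%) of 52 lower genes. Unresolved genes were 8 of the higher (26.7%) and 1 of the lower genes (1.92%). Where both ZDSD groups are near the counting floor, a DMT vs SHAM step can hardly be called. Thus most of the large losses in treated cortex were also called in SHAM rats, with no difference called between DMT and SHAM. Both steps were called in 32 of the 152 genes at least 4-fold lower (21.1%) and in 13 of the 52 at 8-fold. In those genes DMT rats were lower than SHAM rats as well. The loss was partly reversed in 5 and 4 genes, where DMT rats were higher than SHAM rats. Among higher genes, both steps were called in 12 of 77 and 5 of 30. These shares rest on small counts, and the difference between the directions was not tested.

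**Figure D3:**
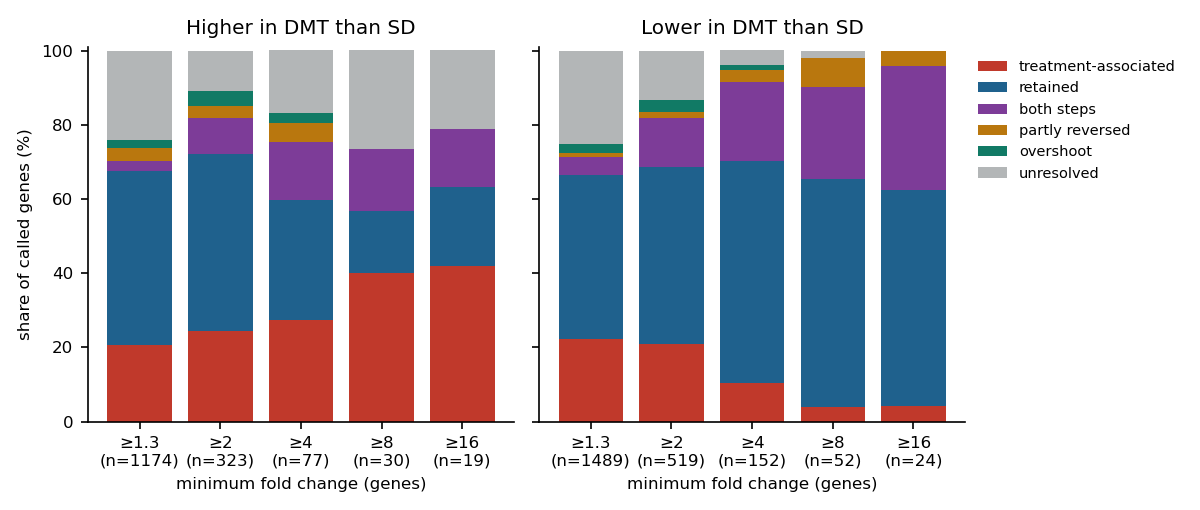
Bars give the share of called genes in each class (%) at increasing minimum fold change, for genes higher (left) and lower (right) in DMT than SD rats, with the number of genes under each bar. The treatment-associated share grows with fold change to 40.0% of higher genes at 8-fold and shrinks to 3.85% of lower genes, where retained genes make up 61.5%.

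Levels between genes were compared as CPM per kilobase of exon, for which the median gene tested stood at 11.6 in SD and 11.6 in DMT rats. Treatment-associated genes that were higher in DMT rats had a median level of 10.4 in SD, 12 in SHAM and 18.3 in DMT rats, close to the typical gene when untreated. Those that were lower had a median level of 3.15 in SD, 3.13 in SHAM and 1.75 in DMT rats, and 75 of the 330 averaged under 1 CPM in DMT rats. Retained genes showed the reverse order. Those lower in DMT rats had a median level of 17.4 in SD rats and 9.69 and 9.23 in SHAM and DMT rats, above the typical gene in health, while those higher in DMT rats went from 2.99 in SD to 5.57 in SHAM and 5.08 in DMT rats. Median exon length differed little, from 1880 bp in retained lower genes to 2360 bp in treatment-associated lower genes, with 2010 bp over all genes tested.

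The 25 overshoot genes that were higher in DMT than SD rats were abundant transcripts. Their median level was 57.9 CPM per kilobase in SD rats, 32.6 in SHAM rats and 126 in DMT rats. Over all genes tested the median in SD rats was 11.6. Of the 25, 16 reached 100 CPM in DMT or SD rats, a count raised by choosing genes that are high in DMT rats. Per rat, their median log2 difference from the SD mean ran from 0.89 to 1.21 in DMT rats and from -0.72 to -0.42 in SHAM rats. By this median every SHAM rat was below and every DMT rat above the healthy level. The genes were classed from these same rats by opposite group differences, so this is a description only. The 35 overshoot genes in the other direction were scarce transcripts, at 1.62 in SD, 2.38 in SHAM and 0.73 in DMT rats.

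Genes with both steps in the same direction must by the rule differ by more than either step, and their values are given as a description. Their median absolute log2 fold change was 1.86, and 103 of the 106 (97.2%) had no overlap between DMT and SD rats, compared with 67.1% of treatment-associated, 64.4% of retained and 48.9% of unresolved genes and 6.83% of the genes not called. The 74 that were lower had a median level of 3.98 CPM per kilobase in SD, 1.71 in SHAM and 0.882 in DMT rats. The 32 that were higher stood at 2.39, 6.12 and 11.1. In these genes DMT rats were farther from healthy rats than SHAM rats were. In the 56 partly reversed genes they were nearer, and the 40 that were higher stood at 2.35 in SD, 7.53 in SHAM and 4.72 CPM per kilobase in DMT rats. The size of this class fell by a similar amount whichever DMT rat was left out, so no single treated rat stood out. It was 33 without DMT rat 316, 34 without rat 325 or rat 328, 36 without rat 329 or rat 341 and 38 without the remaining DMT rat. Among SHAM rats it depended more on the rat left out, from 37 without rat 333 to 86 without rat 340. Leaving out single SD rats gave 42 to 61.

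The shift of each rat was described class by class. For each rat, the difference from the SD mean in log2(CPM + 0.5) was taken and its median found over the genes of a class. For treatment-associated genes higher in DMT, this median was 0.69 to 0.79 in the 6 DMT rats, -0.08 to 0.08 in SHAM rats and -0.06 to 0.07 in SD rats. For those lower in DMT, it was -0.68 to -0.61 in DMT, -0.23 to 0.24 in SHAM and -0.12 to 0.10 in SD rats. The genes were classed from these same rats, and the rule favours genes that shift alike in all of them, so the narrow range is a description only. Over all genes tested, the median SD of log2(CPM + 0.5) between rats was 0.119 in DMT, 0.158 in SD and 0.178 in SHAM rats.

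For retained genes the SHAM rats spanned a wider range than the DMT rats. Among those higher in DMT than SD, the median per rat was 0.56 to 0.71 in DMT rats and 0.46 to 0.94 in SHAM rats, and among those lower it was -0.88 to -0.61 and -1.04 to -0.45. SHAM rat 333 lay farthest from healthy rats in both directions (0.94 and -1.04) and SHAM rat 340 nearest (0.46 and -0.45). Among treated rats, rat 328 lay farthest (0.71 and -0.88) and rat 347 nearest (0.56 and -0.61). Rat 333 also had the lowest total of these 7 SHAM libraries, 14502127 counts, and the highest normalization factor, 1.13. The part of depth in its position was not tested. Leaving this rat out gave 603 treatment-associated and 1157 retained genes. It raised the genes called from 2663 to 2808 and the unresolved genes from 657 to 846.

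**Figure D4:**
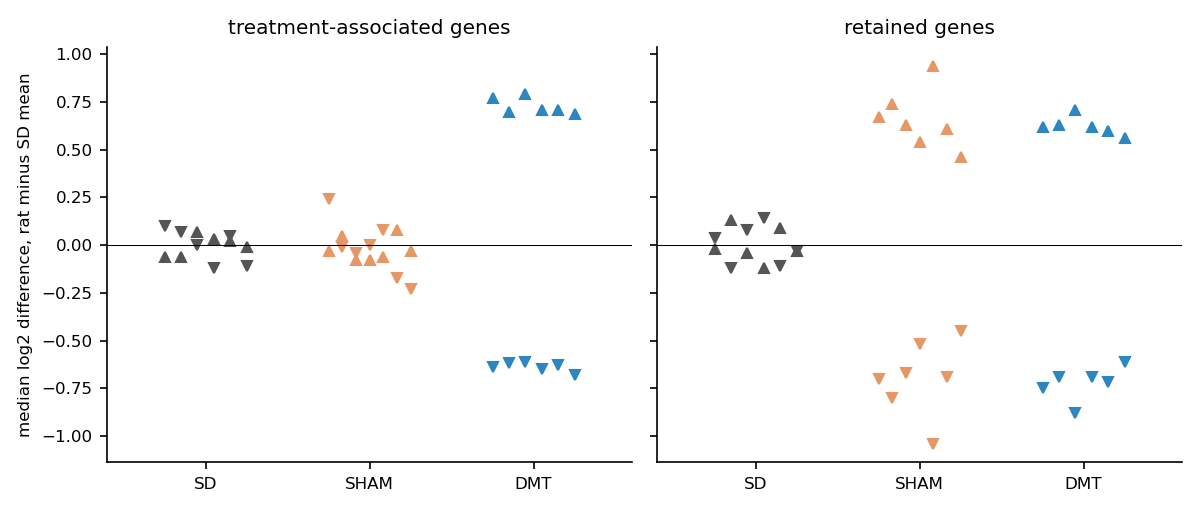
For treatment-associated genes (left) and retained genes (right), each symbol is 1 rat's median log2 difference from the SD mean, with upward triangles for genes higher and downward triangles for genes lower in DMT. Treated rats cluster at 0.69 to 0.79 and -0.68 to -0.61 on the left, where SHAM rats lie around 0, and on the right SHAM rats spread around the treated rats, from 0.46 to 0.94 and from -1.04 to -0.45.

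Retained and treatment-associated genes were found on all autosomes and the X chromosome. Retained genes made up 8.27% of genes tested, from 5.70% on chromosome 12 to 12.6% on chromosome 20 (54 of 429 genes). Treatment-associated genes made up 3.90%, from 2.37% on the X chromosome to 5.61% on chromosome 15. Chromosome 20 was thus highest for retained genes but not for treatment-associated genes, of which it held 12 (2.80%). These shares were not tested.

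Genes of one class and direction also lay next to each other along the chromosomes, in most but not all classes. Of 242 treatment-associated genes higher in DMT, 34 (14.0%) had a tested neighbour of the same kind, against 3.05% of other genes with such a neighbour. For treatment-associated genes that were lower, the shares were 9.39% and 4.30%. For retained genes they were 17.6% against 8.28% when lower and 13.6% against 7.06% when higher. For unresolved genes they were 7.75% against 4.92% when lower and 3.18% against 3.82% when higher. For genes with both steps they were 13.5% against 0.946% when lower and 18.8% against 0.39% when higher. Partly reversed genes had 12.5% against 0.198% when lower and 5.0% against 0.52% when higher, from 2 genes each. Of the 25 higher and 35 lower overshoot genes, 0 had such a neighbour. Runs of at least 3 successive tested genes of one class and direction numbered 20, of which 13 were of retained genes (10 lower and 3 higher) and 5 of treatment-associated genes (2 higher and 3 lower). Neighbouring genes are not independent, and no test was made of these counts.

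The longest run held 5 retained genes on chromosome 9, from 3191457 to 3707138 of rn5, all lower in DMT than SD rats. Their summed level was 484 to 861 CPM in DMT rats (median 712), 270 to 1110 CPM in SHAM rats (median 847) and 1120 to 2220 CPM in SD rats (median 1900). Healthy rats were thus above all ZDSD rats, narrowly in the case of SD rat 353 and SHAM rat 340. The first gene of the run carried most of the sum, at 600 ± 118 CPM in DMT and 1650 ± 398 CPM in SD rats (SD, n=6 each), a log2 fold change of -1.46 (SE 0.28, adjusted p=0.00065, edgeR). The second differed most, at -3.96 (SE 0.48, adjusted p=4.58e-06), and the fourth least, at -0.48 (SE 0.07, adjusted p=5.02e-05). In SHAM vs SD the 5 genes ranged from -3.46 to -0.39. SHAM rat 333 had the lowest sum of its group (270 CPM) and DMT rat 328 the lowest of the treated rats (484 CPM), the same rats that lay farthest from healthy over all retained genes.

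Some of the shorter retained runs varied widely among healthy rats, while others did not, such as 3 genes on chromosome 8 that summed to 800 to 984 CPM in SD rats and 494 to 692 CPM in DMT rats. A run of 3 genes on chromosome 6 (147047268 to 147286431 of rn5), in which ENSRNOG00000048402 lies, summed to 5.05 to 7.87 CPM in DMT rats, 6.84 to 13.0 CPM in SHAM rats and 6.98 to 73.7 CPM in SD rats. Here the lowest SD rat fell within both ZDSD groups, and all 3 genes overlap others on the same strand. A run of 3 genes on chromosome 1 (235895198 to 236214857) summed to 8.20 to 11.2 CPM in DMT, 9.19 to 19.1 CPM in SHAM and 20.5 to 113 CPM in SD rats. The middle gene of that run accounted for the spread, at 32.8 ± 48.9 CPM in SD rats against 0.502 ± 0.192 CPM in DMT rats. In the other direction, 3 genes on chromosome 10 (89722766 to 89877057) summed to 4.90 to 7.28 CPM in DMT and 5.65 to 9.50 CPM in SHAM rats, above the 1.32 to 3.20 CPM of all SD rats.

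Of the treatment-associated runs, 2 were higher in DMT rats, and in both all DMT rats lay above all SD and SHAM rats. On chromosome 5 (81396360 to 82252907 of rn5), 3 genes summed to 89.4 to 106 CPM in DMT rats, 33.6 to 46.4 CPM in SHAM rats and 30.9 to 39.8 CPM in SD rats. Their log2 fold changes in DMT vs SD were alike at 1.37, 1.55 and 1.45 (SE 0.13, 0.11 and 0.08), and in SHAM vs SD they were -0.28, -0.14 and 0.14. On chromosome 4 (165697844 to 165967275), 3 neighbours differed in size of change, by 3.46, 4.71 and 0.53. The third was an abundant transcript at 443 ± 44.2 CPM in DMT and 308 ± 33.1 CPM in SD rats. The first 2 were scarce at 2.51 ± 0.709 and 2.08 ± 0.765 CPM in DMT rats. They were near the floor in SD rats, at 0.228 ± 0.122 and 0.0742 ± 0.0523 CPM, and in SHAM rats, at 0.0985 and 0.045 CPM. Their SHAM vs SD log2 fold changes of -1.12 and -0.7 were not called. In this run 1 gene overlaps another on the same strand. The 3 treatment-associated runs that were lower in DMT rats were less clearly separated. The run on chromosome 2 summed to 12.9 to 15.4 CPM in DMT rats, below the 17.8 to 42.1 CPM of SHAM and the 16.5 to 31.6 CPM of SD rats. The run on chromosome 10 (23.9 to 32.1 CPM in DMT rats) overlapped SHAM (30.6 to 58.2 CPM) and SD rats (31.4 to 67.0 CPM) at the edge of their ranges. The run on chromosome 6 (15.2 to 23.1 CPM in DMT rats) also overlapped SHAM (19.6 to 37.6 CPM) and SD rats (21.7 to 38.5 CPM).

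**Figure D5:**
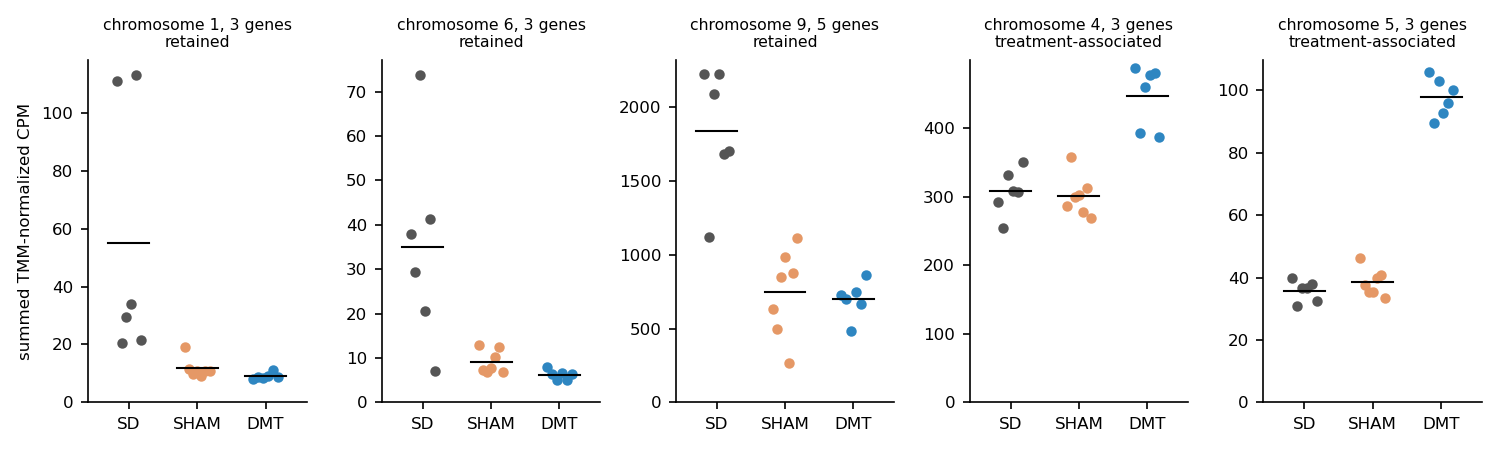
The summed level in CPM of 5 runs of adjacent genes is plotted for each rat (6 SD, 7 SHAM, 6 DMT), with lines at the mean. In the retained runs on chromosomes 1 and 9 both ZDSD groups lie below all SD rats, on chromosome 6 the lowest SD rat (6.98 CPM) lies within both ZDSD groups, and in the treatment-associated runs on chromosomes 4 and 5 the DMT rats lie above all SD and SHAM rats, at 387 to 488 CPM and 89.4 to 106 CPM.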

How the data were processed

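For each rat, the authors deposited fragment counts for 26404 Ensembl genes, without normalization. According to the labels and the study's methods, RNA libraries were stranded and depleted of ribosomal RNA, and read pairs were trimmed with Trim Galore, mapped to rn5 with STAR and counted on exons with featureCounts (1.6.4, reverse strand). By the default of that program, fragments on several positions or genes are left out, which lowers overlapping and duplicated genes.

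Genes were kept by filterByExpr (minimum count 10, minimum total 15), leaving 14664 of the 20975 genes with a count, and 19 libraries with at least 1000000 counts were normalized by TMM (factors 0.904 to 1.13) and fitted by group in edgeR (4.0.16, R 4.3.3). The common biological coefficient of variation was 0.158. Calls required a Benjamini-Hochberg adjusted p under 0.05 over all genes tested and a 1.3-fold change. Standard errors and 95% intervals were derived from the F statistics. Exact intervals and floors of 3 counts cover counting error only. The fit and the sorting into classes were tested on simulated data. DESeq2 (1.42.0), Python (3.11.15), pandas (2.3.3), scipy (1.17.1) and matplotlib (3.10.9) were also used.

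The comparison, classes and lists were chosen with earlier results of these data known. Genes named were, by rule, the 2 with the highest and the 2 with the lowest log2 fold change among genes called, with at least 1 CPM in DMT or SD rats and no overlap between them. Because 0 identifiers matched the reference gene table (GRCr8), pathway, drug-target and cell-type lists were not analysed here. Alternatives comprised DESeq2, its size factors, other filters, thresholds and libraries, the class rule, and leaving out each rat.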

Additional observations from a re-analysis of the deposited data

Results flagged for a closer look

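Of 48 groups of rats examined for a rat that stood apart, 5 were marked by Dixon's criterion at the 95% level. Chance would give about 2.4 among independent groups of normally distributed values. A group with a count in only 1 rat is always marked, so the 5 cannot be set against that figure. All 5 concerned genes that were low in ZDSD rats. For ENSRNOG00000020057 the rats apart were DMT rat 341 (0.0374 CPM) and SHAM rat 334 (0.0461 CPM), each with the 1 count of its group, and SD rat 357 (24.1 CPM), which held far more than the other healthy rats. For the summed level of the retained run on chromosome 1, they were DMT rat 341 (11.2 CPM) and SHAM rat 311 (19.1 CPM), both still below the lowest SD rat (20.5 CPM).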

How the results depend on the processing

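The fold-change threshold moved the counts most. At 2-fold, 842 genes were called (323 higher, 519 lower), with 195 treatment-associated, 344 retained, 28 in both steps, 8 partly reversed, 6 overshoot and 261 unresolved, since the same threshold then applied to each step. With 1.3-fold tested in the model (glmTreat), 1091 were called (450 higher, 641 lower), with 215, 418, 13, 3, 7 and 435 in these classes. With no fold-change threshold, 4682 were called (2265 higher, 2417 lower), with 987, 2271, 208, 108 and 124 in the first 5 classes. The other settings kept every count within 1.5 times, with 2779 genes called by DESeq2, 2671 with its size factors, 2904 with all genes of at least 1 count, 2256 with at least 10 counts in every library, 2682 with all 21 libraries, 2668 with the shallow libraries summed and 2769 with 12 libraries. By SHAM position alone, 597 genes were treatment-associated and 1151 retained.

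Leaving out each rat gave 2437 to 2823 genes called, 1064 to 1377 higher and 1358 to 1537 lower, 493 to 624 treatment-associated, 1035 to 1418 retained, 73 to 104 in both steps, 45 to 89 overshoot and 579 to 846 unresolved. Partly reversed genes ranged from 33 (without DMT rat 316) to 86 (without SHAM rat 340) and stayed within 1.5 times in 12 of 19 fits. Each named gene kept its direction and call in all 28 alternatives that tested it. The log2 fold changes were 7.69 to 8.07, 7.40 to 7.71, -10.12 to -7.83 and -6.68 to -6.02. The filter of at least 10 counts in every library removed all of the named genes, so that setting does not cover them. No paired analysis was possible because the labels number rats individually and no number is shared between groups. Depth limits fold changes of genes near 3 counts.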
